A study of Mus musculus with 8 samples.

Results

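The 9 genes described here encode the secreted side of TGF-beta signalling in the newborn aorta: the TGF-beta ligands Tgfb1, Tgfb2 and Tgfb3, the latent TGF-beta binding proteins Ltbp1, Ltbp2, Ltbp3 and Ltbp4, the activin subunit Inhba, and Tgfbi. They were chosen by symbol, as the rows of the expression table annotated with exactly 1 gene symbol that is on this list. All 9 of 9 had such a row, 1 row each, among 22180 genes with a name. Tgfbi is neither a ligand nor a binding protein: it encodes a secreted adhesion protein named for its induction by TGF-beta. Inhba encodes a subunit of activin A, a ligand of the same superfamily that signals through its own receptors.

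Each TGF-beta is made as a precursor whose propeptide stays wrapped around the mature growth factor and keeps it latent. The latent complex is joined to a binding protein, which anchors it to fibrillin microfibrils and fibronectin in the matrix until integrins, thrombospondin or proteases release it. Ltbp2 differs from its relatives in that it does not carry latent TGF-beta, and Ltbp4 also takes part in elastic fibre assembly, where it binds fibulins. Altered TGF-beta signalling is a known feature of aortic aneurysm.

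Gene expression was measured on 8 Affymetrix arrays in 4 groups of 2, all from C57BL/6 pups on the day of birth (postnatal day 0). The groups were wild-type ascending, wild-type descending, fibulin-4 knockout ascending and fibulin-4 knockout descending aorta. Fibulin-4 is secreted into the matrix and takes part in elastic fibre assembly, and the labels describe the knockout as mice without its gene, with no tissue-specific driver named. The ascending piece began at the aortic valve and ended at the ductus arteriosus, and the descending piece lay between vena cava and diaphragm. Each array held RNA of 8 pooled segments of 1 genotype, so variation between single pups is not seen. The labels name the arrays of a group biological replicates and do not say which pups or litters a pool held.

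The tissue carried the markers of its label. The smooth muscle actin gene Acta2 had a log2 level between 12.10 and 12.45 on all arrays, and a set of 8 Hox genes of the trunk had a mean log2 level of 4.80 to 5.25 on the descending and 4.03 to 4.54 on the ascending arrays. Replicate 2 of wild-type ascending and of wild-type descending aorta stood apart: the interquartile range of their log2 values was 1.80 and 1.74, against 2.14 to 2.28 on the other 6 arrays. For the members, replicate 2 was the lower array in 7 of 9 genes in wild-type ascending and in 9 of 9 in wild-type descending aorta. Wild-type ascending replicate 1 stood apart in another way. It lay at -65 on the second principal component (21.3% of the variance), against -4.7 to 19.6 on the other arrays. Its 5 mesothelial markers averaged 7.21, against 5.95 to 6.36 elsewhere. Leaving out both wild-type replicate 2 arrays keeps this array as the only wild-type ascending one. Other cell types moved with the groups. The 9 myeloid markers averaged 6.96 and 6.60 in wild-type and 8.04 and 7.76 in knockout ascending aorta, and the 9 endothelial markers 7.43 and 7.18 against 6.61 and 6.33. In the descending aorta the myeloid mean was 7.32 and 7.08 in wild-type and 7.98 and 7.56 in the knockout, and the endothelial mean 7.76 and 7.26 against 7.60 and 7.24. Skeletal muscle markers were highest in wild-type ascending aorta (7.24 and 8.48, against 5.54 to 6.63 elsewhere) and brown fat markers in wild-type descending aorta (8.67 and 7.85, against 5.82 to 7.07 elsewhere). Cardiomyocyte markers averaged 7.38 and 7.25 in knockout descending aorta and 6.00 to 6.75 elsewhere, with a median knockout effect of 0.98 in the descending aorta. Smooth muscle markers averaged 9.21 to 9.44 on the knockout and 8.85 to 9.16 on the wild-type arrays. In pooled tissue, fewer cells of a type and less RNA per cell cannot be told apart, and the part of these cell types in the results below was not tested.

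The first question was whether these genes differ without fibulin-4. Values are log2 levels as deposited, a change is the difference of 2 group means with its standard error (SE) from limma, and a call means a p under 0.05 after Benjamini-Hochberg adjustment over all 22180 genes. All 9 genes had a change above 0 in the average of both segments, as did 49.8% of all genes and 80.1% of the brightest 10%, where 8 of the 9 belong. Their values ran from 0.25 to 1.06 with a median of 0.52, against a median of 0.00 over all genes and 0.24 over the brightest 10%. The median change over all genes went from -0.14 to 0.24 between the lowest and the highest of 5 equal bins of level. Quantile normalization, which gives all arrays 1 distribution, took the median of the brightest 10% to 0.04 and that of the members to 0.29, with values from 0.001 to 0.84. Without both wild-type replicate 2 arrays these medians were 0.11 and 0.35, with values from 0.11 to 0.92. None of the 9 was called by limma, where 0.0676% of all genes were called higher and 0.00451% lower. At an unadjusted p under 0.05, 5 of the 9 were higher and 0 lower, beside 7.57% of all genes higher and 3.83% lower, and 23.5% of the brightest 10% higher. After quantile normalization 9 of 9 were above 0 and 3 were higher at this p. Without both wild-type replicate 2 arrays 9 of 9 were above 0. Shares of all genes were not counted under these settings, so these counts have no background beside them. Ltbp2 and Tgfb3 came closest, each with about a doubling in the fit and an adjusted p under 0.1, a line that 0.207% of all genes passed on the higher side.

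**Figure D1:**
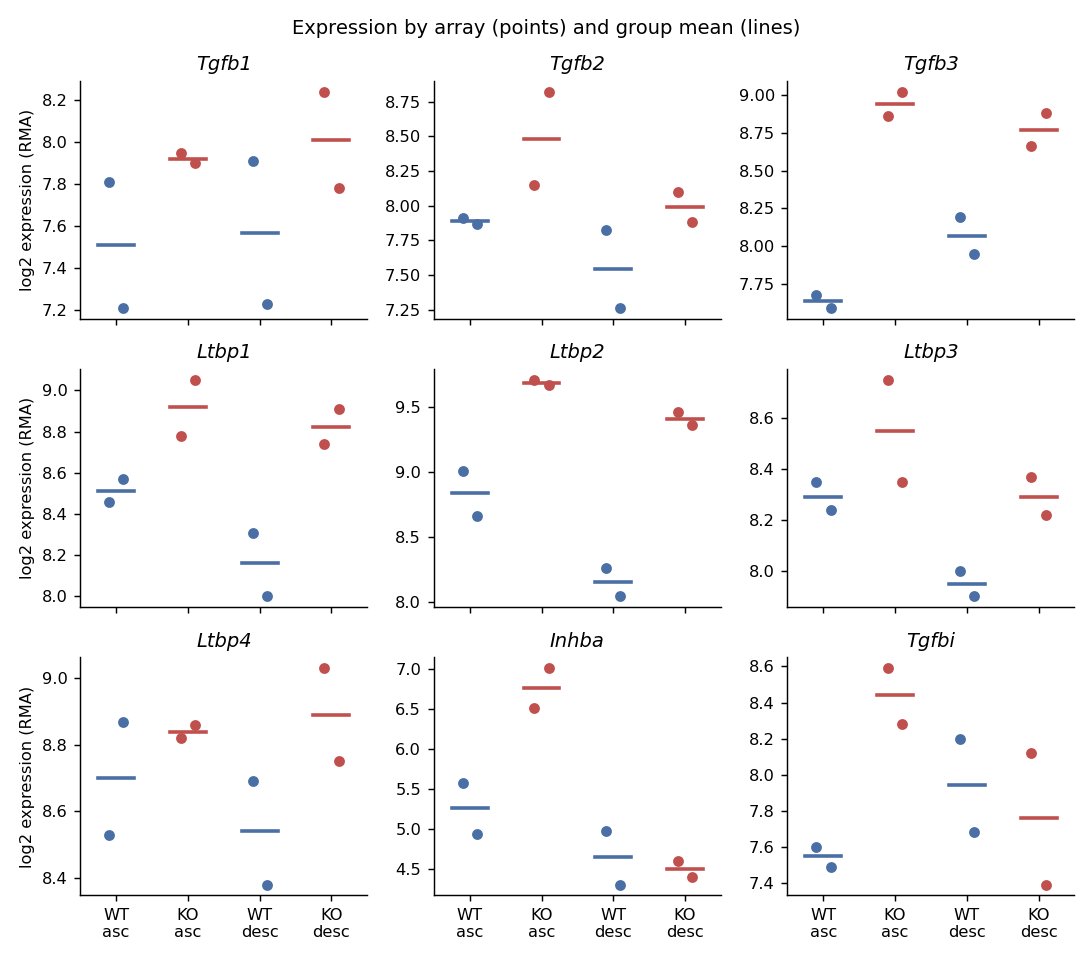
Log2 expression of the 9 genes on every array (points) with the mean of each group (lines), for wild-type (WT, blue) and fibulin-4 knockout (KO, red) in ascending (asc) and descending (desc) aorta, with 2 arrays per group and a scale of its own in each panel. All knockout points lie above all wild-type points for Tgfb3, Ltbp1 and Ltbp2, and for Inhba the knockout ascending points at 6.51 and 7.01 lie above all others.

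Of the TGF-beta isoforms, Tgfb3 showed the largest difference. This isoform is produced by mesenchymal cells and is known for its part in palate fusion and wound repair. Its log2 level was 7.68 and 7.59 in wild-type ascending, 8.19 and 7.95 in wild-type descending, 8.86 and 9.02 in knockout ascending and 8.66 and 8.88 in knockout descending aorta. All 4 knockout arrays lay above all 4 wild-type arrays, and the knockout segments overlapped. The means were 7.64 ± 0.06, 8.07 ± 0.17, 8.94 ± 0.12 and 8.77 ± 0.16 (SD, n = 2) in the same order. The change was 1.30 (SE 0.25), or 2.47-fold, in the ascending aorta and 0.70 (SE 0.25), or 1.63-fold, in the descending aorta. The descending change was 0.45 after quantile normalization. Averaged over segments the change was 1.00 (SE 0.17, limma adjusted p = 0.0989). This average was 0.76 after quantile normalization (limma adjusted p = 0.254), and 0.92 without both wild-type replicate 2 arrays.

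Tgfb2 is the isoform most tied to the development of the outflow tract. It had 7.91 and 7.87 in wild-type ascending, 7.82 and 7.26 in wild-type descending, 8.15 and 8.82 in knockout ascending and 8.10 and 7.88 in knockout descending aorta. The knockout arrays lay above the wild-type arrays within each segment, but the lower knockout descending array fell between the wild-type ascending ones. Its averaged change was 0.52 (SE 0.22; unadjusted p = 0.0401, limma adjusted p = 0.413), and 0.29 after quantile normalization. The ascending change of 0.59 (SE 0.31) was smaller than the gap between the 2 knockout ascending arrays, and it was 0.26 without knockout ascending replicate 2 and 0.93 without replicate 1.

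Tgfb1, the isoform released by platelets and leukocytes as well as by the vessel wall, differed least among the isoforms. Wild-type arrays read 7.81 and 7.21 in ascending and 7.91 and 7.23 in descending aorta, and knockout arrays 7.95 and 7.90 in ascending and 8.24 and 7.78 in descending aorta. Both wild-type replicate 2 arrays were the low ones, and in the descending aorta the genotypes overlapped. The averaged change was 0.43 (SE 0.23; limma adjusted p = 0.506). It was 0.20 after quantile normalization, 0.28 with replicate 2 of wild-type ascending aorta left out, 0.26 with that of wild-type descending aorta left out and 0.11 with neither used. The myeloid markers, whose cells also make Tgfb1, had a higher mean in the knockout in both segments.

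Ltbp2 had the smallest p of the 9 genes in the averaged effect. Its log2 level was 9.01 and 8.66 in wild-type ascending, 8.26 and 8.04 in wild-type descending, 9.71 and 9.67 in knockout ascending and 9.46 and 9.36 in knockout descending aorta. The 4 groups did not overlap, in the order knockout ascending, knockout descending, wild-type ascending, wild-type descending. The change was 0.85 (SE 0.25), or 1.81-fold, in the ascending and 1.26 (SE 0.25), or 2.40-fold, in the descending aorta, and 1.06 (SE 0.18; limma adjusted p = 0.0924) in the average. This average was 0.84 after quantile normalization (limma adjusted p = 0.196), and 0.92 without both wild-type replicate 2 arrays. A second row of the table was annotated both to Ltbp2 and to D030025P21Rik and was not used. It read 6.16 and 5.28 in wild-type ascending, 5.21 and 5.48 in wild-type descending, 6.18 and 6.28 in knockout ascending and 6.20 and 5.70 in knockout descending aorta, with knockout above wild-type in both segments.

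Ltbp1, a carrier of latent TGF-beta whose product is known to bind fibulin-4, had 8.46 and 8.57 in wild-type ascending, 8.31 and 8.0 in wild-type descending, 8.78 and 9.05 in knockout ascending and 8.74 and 8.91 in knockout descending aorta. As with Tgfb3 and Ltbp2, every knockout array lay above every wild-type array. These 3 genes of 9 compare with 4.76% of all genes, and with 15.4% of the brightest 10%; no member had all knockout arrays below, as 1.98% of all genes did. The averaged change of Ltbp1 was 0.53 (SE 0.18; unadjusted p = 0.0144, limma adjusted p = 0.342), and 0.29 after quantile normalization.

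Ltbp3, which is needed for secretion of latent TGF-beta in bone and which acts in the outflow tract in zebrafish, had 8.35 and 8.24 in wild-type ascending, 8.0 and 7.90 in wild-type descending, 8.75 and 8.35 in knockout ascending and 8.37 and 8.22 in knockout descending aorta. The genotypes were apart in the descending aorta and only beyond the second decimal in the ascending aorta. Its averaged change was 0.30 (SE 0.18; limma adjusted p = 0.547), 0.039 after quantile normalization and 0.20 without knockout ascending replicate 1. Ltbp4 had 8.53 and 8.87 in wild-type ascending, 8.69 and 8.38 in wild-type descending, 8.82 and 8.86 in knockout ascending and 9.03 and 8.75 in knockout descending aorta. Its knockout ascending arrays lay inside the wild-type range, and the averaged change of 0.25 (SE 0.19; limma adjusted p = 0.624) was the smallest of the 9. It was 0.001 after quantile normalization and 0.17 without wild-type ascending replicate 1. The ascending change of Ltbp4 was 0.15 (SE 0.26), and it was -0.11 after quantile normalization.

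Inhba followed another pattern. Activin A, the dimer of its product, drives mesenchymal differentiation and wound healing. The log2 level was 5.58 and 4.94 in wild-type ascending, 4.98 and 4.31 in wild-type descending, 6.51 and 7.01 in knockout ascending and 4.60 and 4.40 in knockout descending aorta. The knockout ascending arrays stood above the other 6, and the remaining groups overlapped with each other, apart from the wild-type ascending and knockout descending arrays. The ascending change was 1.50 (SE 0.34), or 2.83-fold (unadjusted p = 0.00134, limma adjusted p = 0.283), and the descending change was -0.15 (SE 0.34). The averaged change was 0.68 (SE 0.24), and 0.35 without both wild-type replicate 2 arrays. The mean level of Inhba over all 8 arrays lay at the 56.6th percentile of all genes, where those of the other members lay at or above the 94.0th. In the descending aorta its group means were 4.65 in wild-type and 4.50 in the knockout. These lay below the median gene of the descending arrays (5.02 to 5.08), so differences from the descending aorta start from a dim signal. The wild-type ascending arrays, at 5.58 and 4.94, lay near the median gene of those arrays (5.04). The ascending change thus also starts from a low signal. The same knockout ascending arrays had the lowest endothelial marker means.

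Tgfbi was also higher in the knockout in the ascending segment. It had 7.60 and 7.49 in wild-type ascending, 8.20 and 7.68 in wild-type descending, 8.59 and 8.28 in knockout ascending and 8.12 and 7.39 in knockout descending aorta. Its genotypes were apart in the ascending and overlapped in the descending aorta. The change was 0.89 (SE 0.32; unadjusted p = 0.0192, limma adjusted p = 0.479) in the ascending and -0.18 (SE 0.32) in the descending aorta. Its averaged change was 0.35 (SE 0.22), 0.12 after quantile normalization and 0.20 without both wild-type replicate 2 arrays, and it lay between 0.17 (without knockout descending replicate 1) and 0.54 (without replicate 2) with single arrays left out. Macrophages express Tgfbi, and the 9 myeloid markers had a median change of 1.23 in the ascending and 0.52 in the descending aorta.

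Counted over the segments, the knockout arrays lay above the wild-type arrays without overlap for 8 of 9 genes in the ascending aorta, beside 21.5% of all genes and 47.5% of the brightest 10%. In the descending aorta this held for 6 of 9 genes, beside 21.6% and 39.6%. No member lay the other way in either segment, where 18.3% and 15.8% of all genes did. None of the 9 was called by limma in either segment, where 0% of all genes were called in the ascending aorta, and 0.00451% were called higher and 0% lower in the descending aorta. At an unadjusted p under 0.05, 4 of 9 members were higher in the ascending aorta (Tgfb3, Tgfbi, Ltbp2 and Inhba). This compares with 5.31% of all genes and 13.6% of the brightest 10%. In the descending aorta there were 3 of 9 (Tgfb3, Ltbp1 and Ltbp2), beside 3.63% of all genes and 9.65% of the brightest 10%. In either segment 0 were lower, beside 3.60% and 2.32% of all genes. Knockout lay above wild-type without overlap in both segments for 5 of 9 members (Tgfb2, Tgfb3, Ltbp1, Ltbp2 and Ltbp3), beside 7.81% of all genes and 24.9% of the brightest 10%, and 0 lay below in both, beside 4.04% of all genes. All 9 changes in the ascending and 7 of 9 in the descending aorta were above 0, beside 49.3% and 53.7% of all genes and 77% and 75.8% of the brightest 10%. The members' median was 0.59 and 0.44, and the brightest 10% of genes had median changes of 0.27 and 0.23. After quantile normalization the members' medians were 0.37 and 0.20 and those of the brightest 10% were 0.05 and 0.03. Then 8 and 7 members were above 0, and 4 and 1 were higher at an unadjusted p under 0.05. Shares of all genes were not counted under this scaling, so these counts have no background beside them.

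**Figure D2:**
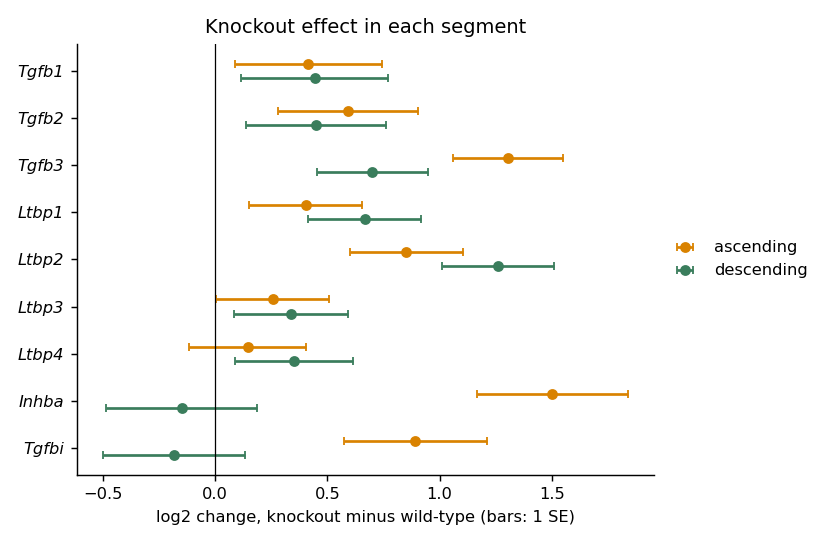
Log2 change from wild-type to fibulin-4 knockout for each of the 9 genes in ascending (orange) and descending (green) aorta, with bars of 1 SE from the limma fit and a line at 0. The largest ascending changes are those of Inhba at 1.50 and Tgfb3 at 1.30, the largest descending change is that of Ltbp2 at 1.26, and Inhba and Tgfbi lie just below 0 in the descending aorta.

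The next question was whether the genes differ between ascending and descending aorta, and whether the knockout alters that difference. None of the 9 was called by limma in wild-type, where 0.00451% of all genes were called in each direction, or in the knockout, where 0% were. In wild-type, Ltbp2 was 0.69 (SE 0.25; unadjusted p = 0.0212, limma adjusted p = 0.750) higher in the ascending segment, or 1.61-fold, and was the 1 member with an unadjusted p under 0.05 (beside 3.21% of all genes higher and 2.98% lower, with 0 members lower). Its change between segments in the knockout was 0.28 (SE 0.25). Ltbp1, Ltbp2, Ltbp3 and Tgfb2 were higher in the ascending wild-type arrays without overlap (4 of 9, beside 15.9% of all genes), and Tgfb3 and Tgfbi were lower without overlap (2 of 9, beside 14.1%). In the knockout, Tgfb2, Tgfbi, Ltbp2 and Inhba were higher in the ascending arrays without overlap (4 of 9, beside 18.3%), and no member was lower without overlap, beside 20.8%. Counted by sign, 6 of 9 were above 0 in wild-type and 7 of 9 in the knockout, beside 51.7% and 48.3% of all genes.

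Inhba had the widest segment difference. In the knockout its ascending level exceeded the descending level by 2.26 (SE 0.34), or 4.80-fold, which ranked 8th of 22180 genes by p (unadjusted p = 6.48e-05, limma adjusted p = 0.180). It was the 1 member with an unadjusted p under 0.05 there, beside 2.00% of all genes higher and 2.04% lower. The difference in wild-type was 0.61 (SE 0.34), from 0.28 to 0.95 with single wild-type arrays left out, with the groups overlapping by the arrays at 4.94 and 4.98. Under limma's array weights the knockout difference was called (adjusted p = 0.0210). Inhba was then 1 of 18 genes called out of 22180, where the main fit called 0. Leaving out single arrays gave 2.01 to 2.51 with none called.

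Whether the segments responded alike was tested by the ascending minus the descending knockout effect. It was 1.65 (SE 0.48; unadjusted p = 0.00645, limma adjusted p = 1.00) for Inhba and 1.07 (SE 0.45; unadjusted p = 0.0388, limma adjusted p = 1.00) for Tgfbi, both larger in the ascending aorta. Tgfb3 stood at 0.60 (SE 0.35) and Ltbp2 at -0.41 (SE 0.35), and the other 5 lay between -0.26 and 0.14. No member and 0% of all genes were called by limma, and 1.62% of all genes had an unadjusted p under 0.05 on the side of Inhba and Tgfbi. Of the 9, 4 were above 0, as were 47.6% of all genes, and 0 had an unadjusted p under 0.05 on the lower side, beside 1.68%. The median SE over all genes was 0.42 here, against 0.30 for an effect within 1 segment.

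**Figure D3:**
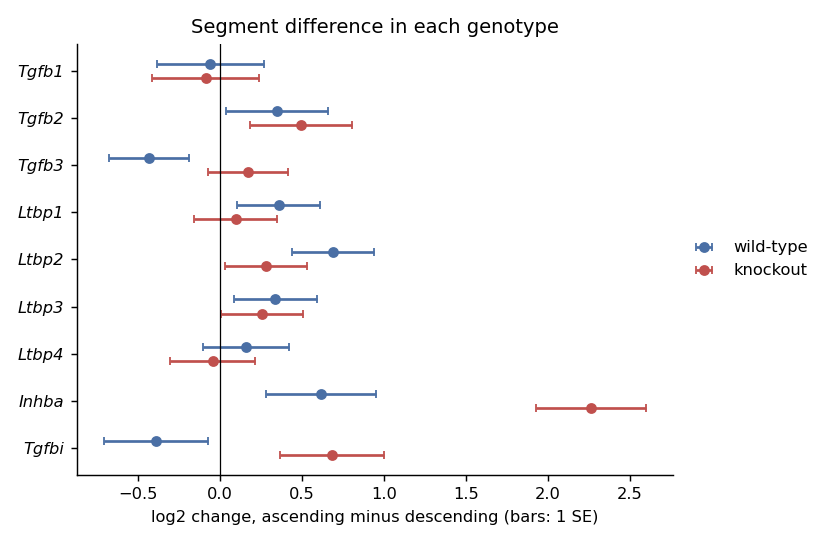
Log2 change from descending to ascending aorta for each of the 9 genes in wild-type (blue) and fibulin-4 knockout (red), with bars of 1 SE from the limma fit and a line at 0. Inhba in the knockout, at 2.26, lies far to the right of every other point, and Tgfb3, Tgfbi and Ltbp4 lie on opposite sides of 0 in the 2 genotypes.

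Regarding the order of levels within a gene, 7 of the 9 genes had their highest group mean in knockout ascending and 2, Tgfb1 and Ltbp4, in knockout descending aorta. None had its highest mean in a wild-type group. The order of Ltbp2 alone was free of overlap between any 2 groups. Levels of different genes were not compared, because probes differ in their brightness.

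The sequences before the start sites are printed for Ltbp2, the gene with the smallest p in the averaged knockout effect, for Inhba, which stood apart by segment, and for Tgfb2 and Ltbp1, where searched motifs were found. They are the 250 bases before the transcription start in RefSeq, build GRCm38.p6, given 5′ to 3′ on the gene's strand; the start of Ltbp1 is the upstream one of 2. Capitals mark matches on either strand to the SMAD-binding CAGA box (CAGACA), the AP-1 site (TGANTCA), the cyclic AMP response element (TGACGTCA), the TATA box (TATAAA) or the TEAD site (CATTCC).
Ltbp2 (chr12:84876492-84876741, minus strand): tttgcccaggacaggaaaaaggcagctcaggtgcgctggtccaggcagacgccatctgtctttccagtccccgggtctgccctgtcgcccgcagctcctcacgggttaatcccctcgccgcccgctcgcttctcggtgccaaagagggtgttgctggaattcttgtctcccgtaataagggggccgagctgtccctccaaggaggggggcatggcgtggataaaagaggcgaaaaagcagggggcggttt
Inhba (chr13:16011601-16011850, plus strand): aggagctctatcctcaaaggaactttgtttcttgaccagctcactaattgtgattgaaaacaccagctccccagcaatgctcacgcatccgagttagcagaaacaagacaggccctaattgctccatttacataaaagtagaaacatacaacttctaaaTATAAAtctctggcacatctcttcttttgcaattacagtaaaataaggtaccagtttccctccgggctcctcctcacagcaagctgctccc
Tgfb2 (chr1:186705990-186706239, minus strand): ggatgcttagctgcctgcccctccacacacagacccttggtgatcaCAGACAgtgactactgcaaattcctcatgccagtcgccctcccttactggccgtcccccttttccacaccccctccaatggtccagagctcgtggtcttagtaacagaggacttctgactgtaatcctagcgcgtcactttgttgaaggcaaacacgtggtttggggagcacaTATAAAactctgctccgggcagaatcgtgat
Ltbp1 (chr17:75005279-75005528, plus strand): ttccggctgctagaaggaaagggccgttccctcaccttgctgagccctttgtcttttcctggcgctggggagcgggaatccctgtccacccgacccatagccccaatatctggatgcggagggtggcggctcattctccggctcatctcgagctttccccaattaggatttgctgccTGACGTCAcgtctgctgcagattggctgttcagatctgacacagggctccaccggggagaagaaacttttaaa
Start sites were at hand for 8 of the 9 members, with 11 starts. Tgfb2 held a CAGA box 204 bases and a TATA box 31 bases before its start, Ltbp1 a cyclic AMP response element 73 bases before the start printed here, and Inhba a TATA match 91 bases before. The other start of Ltbp1, whose sequence is not printed, held 2 CAGA boxes on the opposite strand, 149 and 98 bases before it. Thus 2 of the 8 members held this motif at any of their starts, whereas the shares of mouse genes given next count single starts. Ltbp2 held none of the 5 motifs in this window. Of 32841 RefSeq starts of mouse genes, 17.1% held the CAGA box, 6.75% the AP-1 site, 1.55% the cyclic AMP response element, 12.4% the TATA box and 12.6% the TEAD site in the same window. A match describes letters only.

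The genes whose levels followed a member most closely were found by Pearson correlation over the 8 arrays among 14580 other genes, as a description. The arrays share their group and scaling, which all such values contain. For Ltbp2 these were Psmc4 (r = 0.982), Fzr1 (0.972), Hspg2 (0.972), Bub3 (0.970) and Creb3l2 (0.969). Hspg2 encodes perlecan, a heparan sulphate proteoglycan of the vessel wall, Psmc4 a proteasome subunit, and Creb3l2 a transcription factor of the secretory pathway. For Tgfb3 they were Pgk1 (0.981), a glycolytic enzyme, Msmo1 (0.979), an enzyme of cholesterol synthesis, Itsn2 (0.972), Lsm14a (0.972) and Tti2 (0.969). For Inhba they were Arhgap24 (0.970), Eral1 (0.959), Sorbs2 (0.955), Gask1b (0.945) and Dock8 (0.944). Correlation of ranks (Spearman) with Inhba was 0.69 for Arhgap24 and from 0.929 for Gask1b to 1 for Dock8 among the others. Among the members themselves, Ltbp1 and Ltbp2 followed each other most closely (r = 0.92 over 8 arrays), and Ltbp4 and Inhba least (0.25).

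The rest of the pathway was described by 4 lists of genes, in none of which a gene was called by limma in a single segment. Of 25 genes measured out of 26 that hold TGF-beta latent or activate it, 23 were above 0 in the averaged effect, beside 80.1% of the brightest 10% of genes. Their median was 0.45, and 1 was called. Thbs1, which encodes thrombospondin 1, an activator of latent TGF-beta, was that gene: it rose by 2.54 (SE 0.26; limma adjusted p = 0.0144), from 6.74 and 7.10 in wild-type ascending and 7.08 and 6.15 in wild-type descending to 9.50 and 10.05 in knockout ascending and 8.61 and 9.06 in knockout descending aorta. Knockout and wild-type arrays of Thbs1 were more than 1 log2 unit apart. Its call was lost after quantile normalization (limma adjusted p = 0.0569) and with every row of the table, where no row was called higher. It was also lost without wild-type descending replicate 2 and without any 1 of the 4 knockout arrays. Its change lay between 2.31 and 2.78 with these and other settings. Fbn2, a fibrillin of developing microfibrils to which binding proteins attach, stood at 1.19 (SE 0.19; limma adjusted p = 0.0820), with 0.63 in the ascending and 1.75 in the descending aorta. Fn1, which encodes fibronectin, stood at 0.90 (adjusted p = 0.132) and Itgav, the integrin subunit that pulls TGF-beta from its latent complex, at 0.89 (adjusted p = 0.170). The integrin subunit Itgb8 was at 0.04 (SE 0.17) and the membrane protease Mmp14 at 0.42 (SE 0.18). At an unadjusted p under 0.05, 12 of the 25 were higher and 0 lower, beside 7.57% and 3.83% of all genes and 23.5% of the brightest 10% higher.

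The lists differ in brightness, with which the change of all genes also varies: mean log2 levels per array were 7.59 to 8.41 for latency and activation, 6.26 to 6.79 for receptors and signal transducers, 7.74 to 8.38 for targets and 5.44 to 5.83 for other ligands and antagonists. Of 22 receptors and signal transducers, 17 (77.3%) were above 0, beside 49.8% of all genes and 80.1% of the brightest 10%. Their median was 0.22, against 0.24 for the brightest 10%. Limma called none, and 3 of the 22 had an unadjusted p under 0.05, all higher, beside 7.57% of all genes and 23.5% of the brightest 10%. The receptor genes Tgfbr1 and Tgfbr2 stood at 0.33 (SE 0.22) and 0.30 (SE 0.20), and the inhibitor Smad7 at 0.54 (SE 0.25; adjusted p = 0.444). Smurf1, a ubiquitin ligase that removes receptors and Smads, stood at 0.51 (SE 0.17; adjusted p = 0.338), and the co-receptor Eng at 0.82 (SE 0.28; adjusted p = 0.347).

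Of 22 known targets of TGF-beta measured out of 23, 20 were above 0, beside 49.8% of all genes and 80.1% of the brightest 10%, and the median was 0.39. Of these 1, the collagen-binding integrin subunit Itga11, was called (1.91, SE 0.25; limma adjusted p = 0.0335). Its log2 level was 3.95 and 5.08 in wild-type ascending, 5.48 and 5.34 in wild-type descending, 6.67 and 6.49 in knockout ascending and 7.24 and 7.10 in knockout descending aorta. The median gene of the wild-type arrays lay at 5.02 to 5.08, so the change of Itga11 started from a dim to moderate signal. Ccn2, a matricellular target of both TGF-beta and mechanical load, stood at 1.36 (SE 0.25; adjusted p = 0.111). At an unadjusted p under 0.05, 8 of the 22 were higher and 1 lower, beside 7.57% and 3.83% of all genes and 23.5% of the brightest 10% higher. The call of Itga11 was lost after quantile normalization (adjusted p = 0.0714), without either wild-type descending array (0.106 without replicate 1 and 0.205 without replicate 2) and without any 1 of the 4 knockout arrays (0.182 to 0.226).

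Other ligands of the superfamily and their antagonists lay on both sides of 0. Of 22 genes measured out of 24, 12 were above 0, beside 49.8% of all genes, and the median was 0.06. Limma called none, with 4 higher and 2 lower at an unadjusted p under 0.05, beside 7.57% and 3.83% of all genes. Gdf6, a ligand of the BMP group, stood at 1.08 (SE 0.17; adjusted p = 0.0820), with 1.55 (SE 0.25) in the ascending and 0.60 (SE 0.25) in the descending aorta. The activin antagonist Fstl3 stood at 0.64 (SE 0.19; adjusted p = 0.296), while its relative Fst, follistatin, stood at 0.21 (SE 0.23). Inhbb, the other common activin subunit, had 0.30 (SE 0.21) and Bmp4 had 0.46 (SE 0.21).

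**Figure D4:**
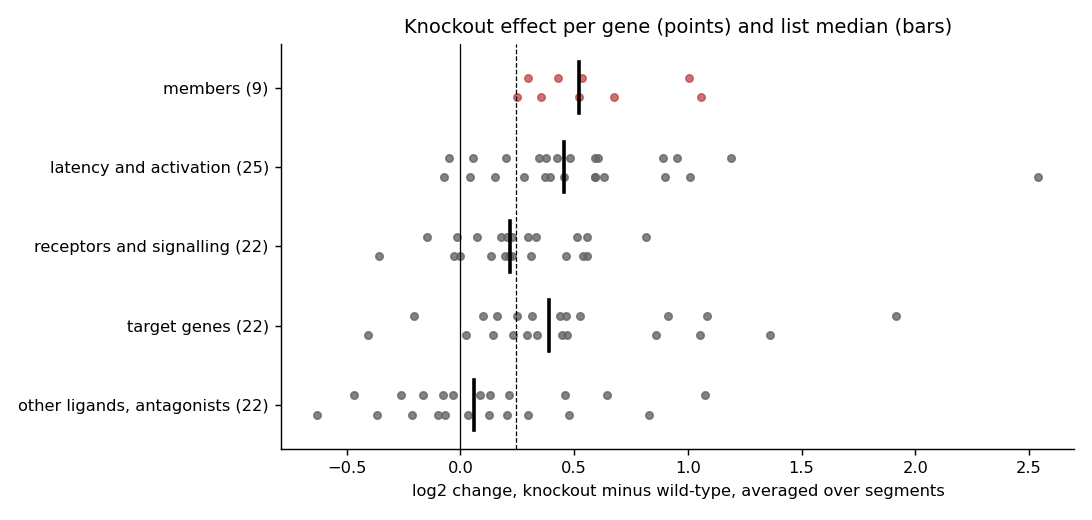
Log2 change from wild-type to fibulin-4 knockout, averaged over both segments, for each gene (points) of the 9 members (red) and of 4 lists of the pathway (grey), with list medians as black bars. The solid line is the median of all genes and the dashed line that of the brightest 10%; the medians are 0.52 for the members, 0.45, 0.22 and 0.39 for the first 3 lists and 0.06 for other ligands and antagonists.

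**Figure D5:**
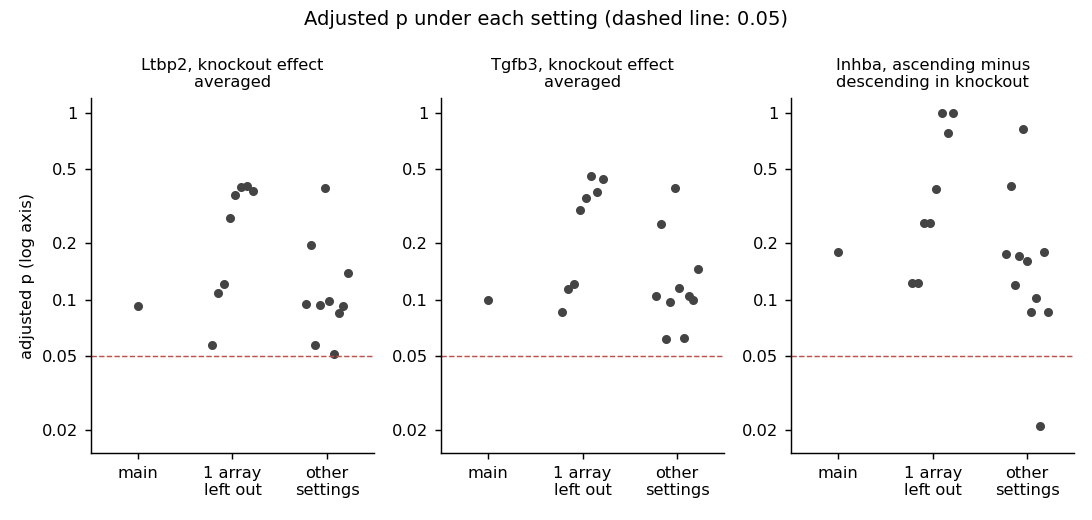
Limma adjusted p on a log axis for 3 comparisons as fitted (main), with each single array left out, and under the other settings, with a dashed line at 0.05. Ltbp2 (0.0511 at its lowest) and Tgfb3 (0.0617) stay above the line throughout, and Inhba passes it under array weights (0.0210).

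These adjusted p-values moved with the arrays and settings used. For Ltbp2 they lay between 0.0511 and 0.403 and for Tgfb3 between 0.0617 and 0.459, while the change itself lay between 0.84 and 1.15 and between 0.76 and 1.06.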

How the data were processed

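Aortic segments were pooled by genotype and segment, and RNA from each pool (5 ng) was amplified, biotin-labelled and hybridised to 1 array, per the labels' protocols. The authors deposited log2 values; the submitters' processing notes name RMA and Affymetrix Expression Console. No version, build or probe design was found in the sources used here. Of 41345 rows, 23521 had 1 symbol in the platform annotation, and the row with the highest mean per gene was kept, which left 22180 genes.

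A model of group means over all 8 arrays was fitted with limma 3.58.1 (R 4.3.3), so the 6 comparisons share 1 estimate of variance, with 4 residual degrees of freedom and a prior of 5.517; the knockout and segment comparisons also share arrays. Benjamini-Hochberg adjustment ran over all genes. Precision is limited by the small number of arrays, and nothing says which litters the pools came from, so p-values measure the spread between pools. The labels also do not say whether ascending and descending pools of a genotype held the same pups. The model treats all 8 arrays as independent. If the pools shared pups, the SE and p-values of the averaged effect could be too small. The fit was tested on simulated data. Alternatives changed the scaling, the filter on dim genes, the choice of rows, the variance model, the replicate block and the arrays included.

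The members and lists were chosen with earlier results of these data known. Named were all members, a set of pathway genes chosen for their role, list genes that were called, the 2 genes with the smallest p in each list, and the 5 genes most correlated with each of the 3 members of widest range (dim genes, predicted genes, small RNAs and olfactory or vomeronasal receptors left out). The targeted gene was not analysed here. Promoters come from RefSeq. Figures were drawn with matplotlib 3.10.9.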

Additional observations from a re-analysis of the deposited data

Results flagged for a closer look

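In Tgfbi both wild-type ascending arrays lay below both wild-type descending arrays, and in the knockout both ascending arrays lay above both descending arrays. The change of the segment difference was 1.07 (SE 0.45; unadjusted p = 0.0388, limma adjusted p = 1.00), so that the opposite directions were not beyond the spread once adjusted over all genes. Gdf6 showed the same pattern, at 0.95 (SE 0.35; unadjusted p = 0.0219, adjusted p = 1.00), and Fbn2 the reverse, with the ascending arrays higher in wild-type and lower in the knockout, at -1.13 (SE 0.37; unadjusted p = 0.0128, adjusted p = 1.00).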

How the results depend on the processing

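No member was called under the alternatives, apart from Tgfb3 and Ltbp2 in the averaged knockout effect at an adjusted p under 0.1 (2 members called) and Inhba in the knockout segment difference under array weights (1 member called). Of 1008 recomputed changes, 21 had the other sign, all of changes smaller than their SE in the fit as reported. Many of the 1008 could not differ. Settings that altered only the variance model, the replicate block, the threshold, the filter or the choice of rows left each member's change as it was. The same held where the array left out was outside the comparison, so the count says little about stability. The ascending effect of Ltbp4 was -0.11 after quantile normalization and -0.022 to 0.32 with single arrays left out. Without both wild-type replicate 2 arrays, the wild-type segment difference of Ltbp4 was -0.16 and its difference of the knockout effect between segments 0.12; that difference for Tgfb1 was 0.011, and 0.002 with arrays centred on their median. With single arrays left out, ranges that crossed 0 were, for the descending effect, -0.55 to 0.18 in Tgfbi and -0.48 to 0.19 in Inhba; for the wild-type segment difference, -0.40 to 0.28 in Tgfb1 and -0.009 to 0.33 in Ltbp4; for the knockout segment difference, -0.32 to 0.14 in Tgfb1, -0.04 to 0.23 in Ltbp1 and -0.19 to 0.094 in Ltbp4; and for the difference between segments, -0.37 to 0.31 in Tgfb1, -0.19 to 0.48 in Tgfb2 and -0.28 to 0.12 in Ltbp3. The cause was not tested.

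The number of genes called over the whole table varied more. In the ascending effect it was 0, and 1 without the dimmest 25% of genes or at an adjusted p under 0.1, 4 with limma's trend and robust options, 11 without both wild-type replicate 2 arrays, and 0 to 14 with single arrays left out. In the descending effect it was 1, and 0 with arrays centred on their median, after quantile normalization, with every row of the table, with the replicate block or with only the groups compared. It was 2 there without the dimmest 25%, with array weights or at an adjusted p under 0.1, 4 with trend and robust options, 7 without both wild-type replicate 2 arrays, and 0 to 2 with single arrays left out. In the averaged effect it was 16, and 2 after quantile normalization, 35 without the dimmest 25%, 1 with every row, 50 at an adjusted p under 0.1, 25 without both wild-type replicate 2 arrays, and 0 (without knockout ascending replicate 2) to 50 (without wild-type ascending replicate 1) with single arrays left out. The wild-type segment difference had 2, and 1 after quantile normalization or with the replicate block, 0 with every row, only the groups compared or array weights, 9 without both wild-type replicate 2 arrays, and 0 to 23 with single arrays left out. The knockout segment difference had 0, and 2 without the dimmest 25%, with trend and robust options or at an adjusted p under 0.1, and 18 with array weights. The difference between segments had 0, and 1 without both wild-type replicate 2 arrays. Same-numbered arrays of different groups had correlations of their deviations from -0.078 to 0.292, the highest between wild-type ascending and wild-type descending aorta. The labels do not say that the numbers pair pools, so the main fit had no replicate block. With the block the limma adjusted p was 0.0977 for Ltbp2 and 0.115 for Tgfb3, and no call of a member changed.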
